A study of Mus musculus with 6 samples.

Results

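Expression of 50 genes of glutathione metabolism and antioxidant defence was examined in mouse kidney at 2 ages. The genes were chosen by name, with earlier results of these data known. Each was read through the array probes annotated to one of its RefSeq transcripts, which gave 70 of the 55681 non-control probes on the array, and 50 of its 20284 named genes. Whole-kidney total RNA came from male C57BL/6 mice, an inbred laboratory strain, with 3 samples at 2 months (young) and 3 at 20 months (aged). No other treatment or allele is named in the labels. Each sample had an Agilent array of its own, labelled in 1 colour, and the comparison asked which genes differed in expression between the ages. The labels do not say whether the RNA preparations of an age came from separate mice, so p-values measure no more than the scatter of these arrays, part of which can be technical.

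Glutathione is a small cysteine-containing peptide that kidney cells hold at high concentration, and the proximal tubule both makes it and breaks it down. Glutathione transferases (GSTs) couple it to reactive compounds, glutathione peroxidases use it to reduce peroxides, and glutathione reductase regenerates it at the cost of NADPH. Peroxiredoxins and thioredoxins remove peroxides by a parallel route, superoxide dismutases and catalase act on superoxide and hydrogen peroxide, and many of these genes are known targets of the transcription factor NRF2, which binds the antioxidant response element.

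The antioxidant response element has the core letters TGACNNNGC, in which N is any base. This core was searched on both strands of the 300 bases from 250 before to 50 after each RefSeq transcription start of build GRCm38.p6. The table of promoter sequences held 43 of the 50 genes. Gclc, Gsr, Gsta4, Gstt2, Hmox1, Prdx6 and Sod3 were not analysed here. A match was present for 8 of the 43 genes (18.6%), against 14.0% of the 27025 genes in the table, and in 8 of their 57 promoters (14.0%), against 12.4% of all 32851. A match is a description of letters and not a binding site. Windows of 69 bases around the match are shown for 7 of the 8 genes, because they are the enzyme genes whose start regions carry the letters of this core. The eighth, Gstm7, had its match just after another of its own annotated starts and is not printed. Txnrd1 also has an annotated start further upstream, so its window lies between starts of the same gene. The capitals mark the match, which reads TGACNNNGC on the strand of the gene in Gsta3 and Gstm5 and appears as its reverse complement, GCNNNGTCA, in the others. All 7 genes lie on the plus strand.
Gclm: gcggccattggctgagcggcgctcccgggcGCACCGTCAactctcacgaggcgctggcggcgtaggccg
Gsta3: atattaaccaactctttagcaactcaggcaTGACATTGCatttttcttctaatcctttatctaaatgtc
Gstm5: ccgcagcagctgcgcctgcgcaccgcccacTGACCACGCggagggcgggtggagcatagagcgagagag
Mgst1: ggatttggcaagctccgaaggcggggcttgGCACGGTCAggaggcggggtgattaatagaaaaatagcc
Prdx1: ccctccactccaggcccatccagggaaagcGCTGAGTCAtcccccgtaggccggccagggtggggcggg
Sod1: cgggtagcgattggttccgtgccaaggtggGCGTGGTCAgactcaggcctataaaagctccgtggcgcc
Txnrd1: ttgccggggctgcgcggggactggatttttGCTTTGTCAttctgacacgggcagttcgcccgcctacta
The windows lie at chr3:122245393-122245461 for Gclm, the regulatory subunit of the enzyme that starts glutathione synthesis, and at chr1:21240434-21240502 for Gsta3, an alpha class transferase. They lie at chr3:107895782-107895850 for the mu class transferase Gstm5 and at chr6:138140441-138140509 for the microsomal transferase Mgst1. The windows of the peroxiredoxin Prdx1, the cytosolic superoxide dismutase Sod1 and the cytosolic thioredoxin reductase Txnrd1 lie at chr4:116685436-116685504, chr16:90220676-90220744 and chr10:82859084-82859152. The match ended between 34 bases before the start in Gstm5 and 126 bases before it in Gclm. In Prdx1 the match TGACTCAGC overlapped the letters TGACTCA of an AP-1 site. The expression of these genes by age is given below with their classes.

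All 50 genes were measured. Of them 48 (96%) were well above background on all 6 arrays, against 90.4% of the 14545 genes tested, and Gsto2 and Mgst2 were above it on all 3 young and 2 of the 3 aged arrays. Values are normalised log2 signals, that is the log2 signal of a probe minus the array's 75th percentile, and a change is the aged mean minus the young mean of these. Levels of different probes are not comparable on this scale, and precision is limited by having 3 arrays per age. With limma, 1 of the 50 genes changed at an adjusted p under 0.05, Gpx7, which was lower in aged kidney. None of the 50 was called higher. Over all genes tested 3.38% were called, 1.98% higher and 1.4% lower. An unadjusted p under 0.05 was found for 6 of the 50, against 17.1% of all genes. The median change of the 50 was -0.03, against -0.01 over all genes, with 22 changes above 0, 28 below, and a range from -0.65 to 0.50. The young and aged arrays did not overlap for 8 of the 50 (16%), 5 higher and 3 lower, and overlapped for 42. Over all genes 21.9% did not overlap, and 10.4% of all genes were higher on every aged array.

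The intervals show how large a change the scatter of these arrays leaves room for. Like the p-values, they measure no more than that scatter, and they do not separate age from slide row. For the brightest probe of each gene, the 95% interval lay within a 2-fold difference for 49 of the 50 genes (98%, against 89.5% of all genes). Gsto2 was the exception. The interval lay within 1.5-fold in either direction for 39 (78%, against 67.5%). These counts do not cover the other probes of Gstm6 (changes of 0.93 and 0.82) and Gstm7 (0.74), which are given below. The fitted change was under 0.2 in size for 38 (76%, against 62.4%). The median standard error was 0.126, against 0.133 over all genes. The median size of a change, whatever its direction, was 0.13, against 0.14.

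**Figure D1:**
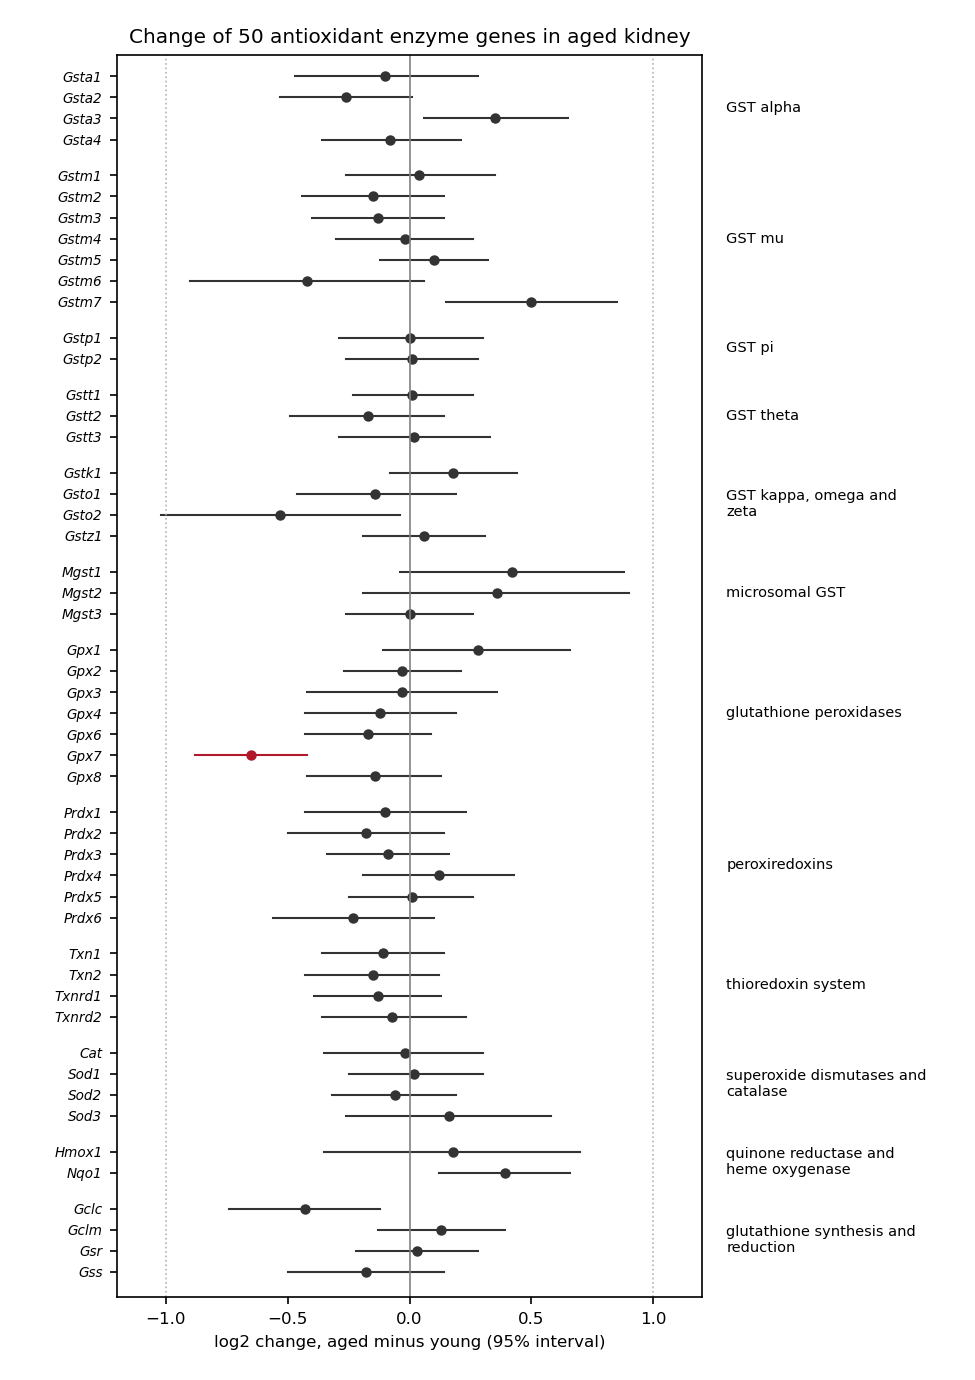
Change of each of the 50 genes, as the aged mean minus the young mean of normalised log2 signal (points) with its 95% interval from limma (lines), grouped by enzyme class, with dotted lines at a 2-fold difference. Each gene is shown by its brightest probe. Gpx7 (red, -0.65) was called, and the intervals of 49 genes lie between the dotted lines.

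Several facts about the samples bear on every value. All 6 arrays lay on 1 slide, the young in slide row 1 and the aged in row 2, so age and row on the slide cannot be told apart. The share of probes well above background was 72.9%, 69% and 55.3% on young replicates 1, 2 and 3. It was 62.9%, 55.7% and 46.3% on aged replicates 1, 2 and 3, and 0 probes were saturated. Each aged array thus had a lower share than the young array of the same number. The 9 proximal tubule markers, among them Slc34a1 and Lrp2, were above background on all 6 arrays. None of the 9 was called by limma, 1 had an unadjusted p under 0.05 and their median change was -0.03. Markers of B and plasma cells (4 of 5 tested), T cells (3 of 5), macrophages (1 of 6) and adipocytes (1 of 5) were called higher in aged kidney. The adipocyte markers had a median change of 1.71, and their median was -2.66, -0.86 and -0.45 on young replicates 1, 2 and 3. All 4 tested urothelial markers were lower on every aged array, and Upk3b was called (-1.79, adjusted p = 0.01). For the other 3 markers, young replicate 1 stood apart. The median of the 4 was -0.40 there, compared with -2.81 and -2.78 on young replicates 2 and 3. Upk2 and Upk3a were well above background on all 3 young but on 2 of the 3 aged arrays. A probe was kept where all arrays of either age passed, so these 2 were tested because of their young arrays. Their lower aged signal is therefore not independent of this filter. In whole-kidney RNA, fewer cells of a type and less RNA per cell cannot be told apart. Aged replicate 3 was the highest of the aged arrays for 34 of the 50 genes (68%), against 42.8% of all genes and 7 of the 9 proximal tubule markers. Before normalisation this array was the dimmest of the 6, with a 75th percentile of 2702, against 4498 and 4205 on aged replicates 1 and 2. Young replicate 3 was also dim (2892), and was the highest young array for 42% of the 50 genes, against 41.1% of all genes. Whether the dimness of aged replicate 3 bears on its ranks was not tested. Without aged replicate 3 the median change of the 50 was -0.11, with 14 changes above 0 and 36 below, against -0.04 over all genes.

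The glutathione peroxidases held the single called gene. Gpx7 encodes a peroxidase of the endoplasmic reticulum that passes oxidising power to protein disulfide isomerases during protein folding. Its normalised log2 signal was -1.36, -1.24 and -1.25 at 2 months and -1.94, -1.88 and -1.97 at 20 months, in the order of replicates 1, 2 and 3 used throughout. Every aged array lay below every young array, and the gap between the ages was several times the range within either. Gpx7 fell by 0.65 on the log2 scale, a 1.57-fold lower signal (log2 change -0.65 ± 0.10, SE, n = 3 arrays per age, 95% interval -0.88 to -0.42, limma adjusted p = 0.017). It ranked 175 by p among the 14545 genes. Within slide columns 1, 2 and 3, which each held 1 array of either age, the aged signal differed by -0.58, -0.65 and -0.72.

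Over 17 alternative analyses the Gpx7 change ran from -0.69 to -0.61. With 1 probe it could not move under other filters, a trended robust variance, the block or the mean of probes. This applies to Gclc and Nqo1 below as well. The Gpx7 call held in 9 of the 17. The adjusted p was 0.0625, 0.0773 and 0.0578 without young replicates 1, 2 and 3 and 0.059 without aged replicate 2, 0.0877 with median centring, 0.0719 with normexp background correction, 0.108 with no filter on dim probes and 0.0559 with the slide column as a block. A single probe represented Gpx7, so no second probe bears on it. The fibroblast marker Col1a1, a chain of type I collagen, fell by 0.85 (adjusted p = 0.0138), while the other 3 fibroblast markers, Dcn, Pdgfra and Pdgfrb, had changes of 0.03, 0.12 and 0.06. The fibroblast marker median was 1.56 to 1.81 at 2 months and 1.27 to 1.40 at 20 months, while the median change of the 4 markers was 0.04, with 3 above 0 and Col1a1 below. The part of fibroblasts in the Gpx7 result was not tested.

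The 250 bases before the Gpx7 start are shown because it is the one gene of the 50 that was called. They lie at chr4:108406714-108406963 of GRCm38.p6, and the gene is on the minus strand.
Gpx7: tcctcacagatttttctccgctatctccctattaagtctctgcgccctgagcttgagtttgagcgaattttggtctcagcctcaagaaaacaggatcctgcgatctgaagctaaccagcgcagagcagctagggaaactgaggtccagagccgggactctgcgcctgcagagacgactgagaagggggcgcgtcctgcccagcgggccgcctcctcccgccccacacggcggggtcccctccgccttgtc
This stretch was 60.4% G and C, held 16 CG pairs and held 0 matches to TGACNNNGC on either strand, which says only that these letters are not in it.

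**Figure D2:**
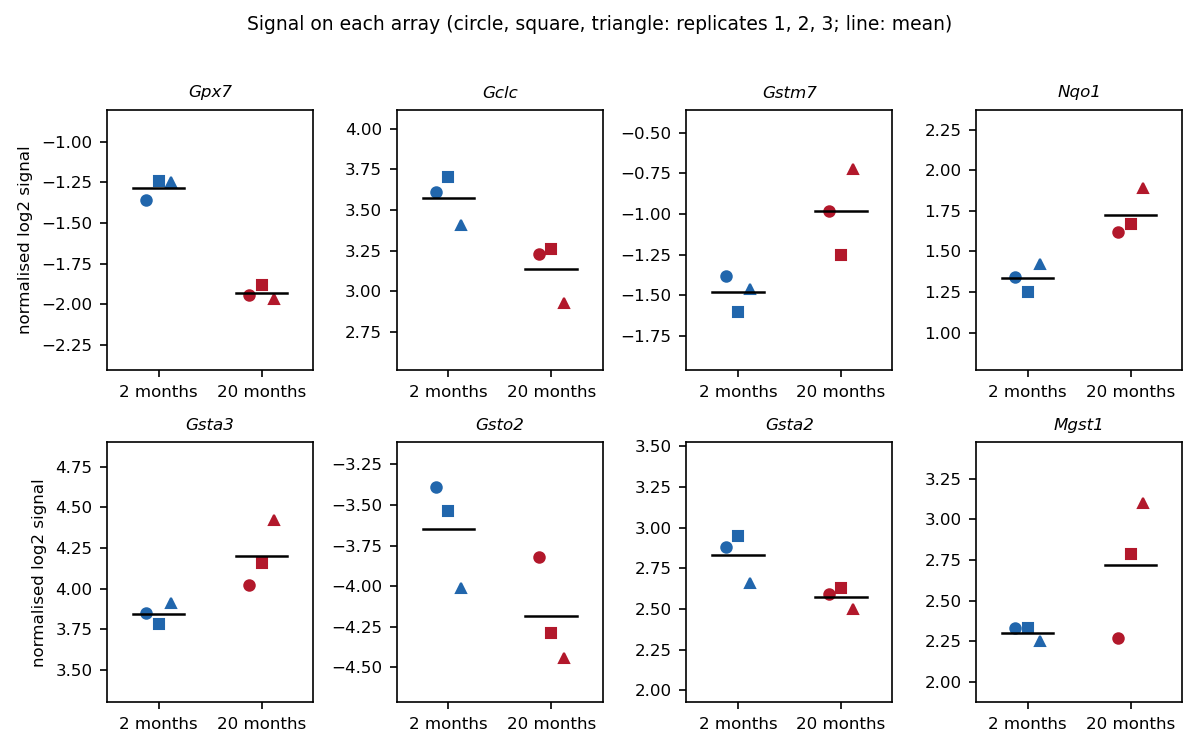
Normalised log2 signal of 8 genes on each array (blue, 2 months; red, 20 months; circle, square and triangle, replicates 1, 2 and 3; line, mean of the 3), with vertical axes that span the same number of log2 units in every panel and start at different levels. The ages do not overlap for Gpx7, Gclc, Gstm7, Nqo1, Gsta3 and Gsta2, and they overlap for Gsto2 and Mgst1.

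The other 6 glutathione peroxidases had changes between -0.17 and 0.28, and none was called. Gpx1, the abundant cytosolic enzyme, had signals of 5.32, 5.38 and 5.44 at 2 months and 5.40, 5.54 and 6.02 at 20 months. The ages overlapped, aged replicate 3 was the highest, and the change was 0.28 ± 0.17 (adjusted p = 0.453), or 0.09 without aged replicate 3. Gpx3, the secreted enzyme that the kidney supplies to plasma, had a change of -0.03 (95% interval -0.42 to 0.36), and Gpx4, which protects membranes from lipid peroxides, of -0.12 (-0.43 to 0.19). Gpx8, the other peroxidase of the endoplasmic reticulum, had signals of 1.23, 1.18 and 1.26 at 2 months and 0.95, 1.28 and 1.01 at 20 months. Its ages overlapped, and its change was -0.14 ± 0.12 (adjusted p = 0.596). Gpx2, best known from the gut, had a change of -0.03 and Gpx6, a relative of Gpx3, of -0.17.

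The 4 genes of glutathione synthesis and reduction had a median change of -0.08, and none was called. Gclc encodes the catalytic subunit of glutamate-cysteine ligase, which sets the rate of glutathione synthesis, and Gclm its regulatory subunit. Gclc had signals of 3.61, 3.70 and 3.41 at 2 months and 3.23, 3.26 and 2.93 at 20 months. All aged arrays lay below all young arrays, by 0.38, 0.44 and 0.48 within the slide columns, and in both ages replicate 3 was the lowest. The change was -0.43 ± 0.13 (adjusted p = 0.153), and it stayed between -0.51 and -0.33 in the 17 alternatives, with an adjusted p of at least 0.0534. Gclm had signals of 2.81, 3.08 and 2.91 at 2 months and 3.08, 3.02 and 3.10 at 20 months. Its ages overlapped, and its change was 0.13, with a 95% interval of -0.13 to 0.39, against -0.74 to -0.12 for Gclc. Whether the 2 subunits differed in their change was not tested. Gss, which adds glycine to complete glutathione, had a change of -0.18 ± 0.14 (adjusted p = 0.567), with 3.45, 3.72 and 3.76 at 2 months and 3.46, 3.29 and 3.65 at 20 months. Gsr, the reductase that regenerates glutathione, had a change of 0.03 (95% interval -0.22 to 0.28).

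The 23 GST genes had a median change of 0, with 13 changes above 0 and 10 below. None (0 of 23) was called by limma, against 3.38% of all genes, and 3 reached an unadjusted p under 0.05, against 17.1%. Many of these genes are closely related neighbours: the RefSeq annotation places the 7 mu class genes in the order Gstm5, Gstm7, Gstm6, Gstm3, Gstm2, Gstm1 and Gstm4 with 0 other coding genes between them. Gstp1 adjoins Gstp2, and Gsto1 adjoins Gsto2, in the same way. Probes of such genes can share signal, so the values of single mu, pi and alpha class genes are uncertain.

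Of the 4 alpha class genes, which act on products of lipid peroxidation, Gsta3 and Gsta2 had arrays that did not overlap, in opposite directions. Gsta3 had signals of 3.85, 3.78 and 3.91 at 2 months and 4.02, 4.16 and 4.42 at 20 months. It was higher on every aged array, with a change of 0.35 ± 0.13 (adjusted p = 0.211). Gsta2 had signals of 2.88, 2.95 and 2.66 at 2 months and 2.59, 2.63 and 2.50 at 20 months. It was lower on every aged array, if narrowly, and its change was -0.26 ± 0.12 (adjusted p = 0.307). Gsta1, its close relative, had a change of -0.10 ± 0.16 with overlapping ages, and Gsta4, which is most active on the lipid aldehyde hydroxynonenal, of -0.08.

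The mu class spanned the widest range of changes between highest and lowest among the GST classes, from -0.42 for Gstm6 to 0.50 for Gstm7. Gstm7 had signals of -1.38, -1.60 and -1.46 at 2 months and -0.98, -1.25 and -0.72 at 20 months. It was higher on every aged array, with a change of 0.50 ± 0.15 (adjusted p = 0.144). Gstm6 had signals of -0.27, -0.24 and 0.04 at 2 months and -0.10, -0.77 and -0.86 at 20 months. Aged replicate 1 lay within the young range and the others below it, and the change was -0.42 ± 0.21 (adjusted p = 0.349). Without aged replicate 1 the Gstm6 change was -0.66 (adjusted p = 0.0408), and without aged replicate 3 it was -0.28 (adjusted p = 0.617). The 5 other mu class genes had changes between -0.15 (Gstm2) and 0.10 (Gstm5), and Gstm1, a major transferase of the class, by 0.04 (95% interval -0.26 to 0.35).

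The probes of Gstm6 did not give 1 answer. Of the 50 genes 34 had 1 probe and 16 had more, and 68 of the 70 probes were tested singly. Of these 68 probes 4 were called by limma with adjustment over 30821 probes (2.09% of which were called), 3 higher and 1 lower, the last being that of Gpx7. The 3 higher were of Gstm6 and Gstm7 and none of them was the brightest probe of its gene. Among 15 genes with more than 1 tested probe, Gstm6 was the single one whose probes differed in change by more than 0.5.

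The Gstm6 probe A_55_P2031671 had signals of -2.63, -2.70 and -2.74 at 2 months and -2.08, -1.69 and -1.51 at 20 months. It rose by 0.93 ± 0.16 (adjusted p = 0.0405). The probe A_55_P2031692 had signals of -2.10, -2.08 and -2.23 at 2 months and -1.45, -1.34 and -1.15 at 20 months, and rose by 0.82 ± 0.12 (adjusted p = 0.0212). On both probes every aged array lay above every young array, in the direction opposite to the brightest probe of the same gene, A_55_P2031676. All 3 probes are annotated to the same RefSeq transcript. The Gstm7 probe A_51_P114005 had signals of -2.93, -3.14 and -3.03 at 2 months and -2.51, -2.17 and -2.19 at 20 months. It rose by 0.74 ± 0.14 (adjusted p = 0.0475), in the same direction as the brightest Gstm7 probe.

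Taking the mean of a gene's probes instead of the brightest gave a Gstm6 change of 0.44 (adjusted p = 0.0473), a reversed sign, and a Gstm7 change of 0.62 (adjusted p = 0.0397). The direction of each of these 3 probes held in all 16 alternatives run on single probes, but their calls held in 8, 8 and 4 of them, in the order above. The changes themselves could not move under other filters, a trended robust variance or the block. Leaving out any 1 array other than aged replicate 1 ended all 3 calls, with an adjusted p of 0.0862 to 0.156 for A_55_P2031671, 0.0536 to 0.1 for A_55_P2031692 and 0.126 to 0.19 for A_51_P114005. Whether the Gstm6 probes read other mu class transcripts was not tested, and their sequences were not used here.

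**Figure D3:**
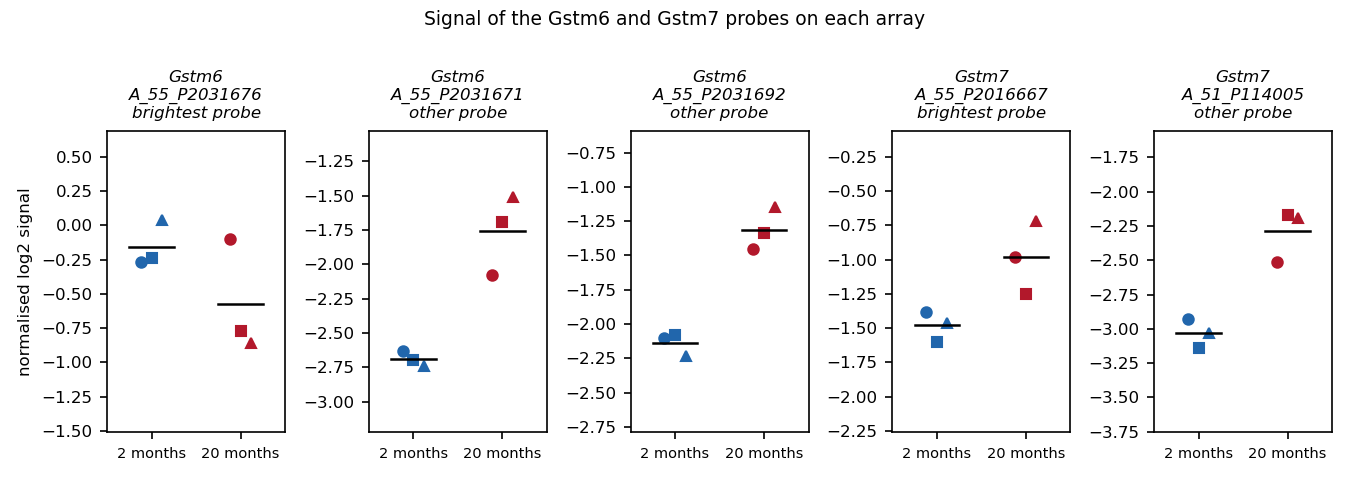
Normalised log2 signal of the 3 Gstm6 and 2 Gstm7 probes on each array (blue, 2 months; red, 20 months; circle, square and triangle, replicates 1, 2 and 3; line, mean). The brightest Gstm6 probe has a change of -0.42, while the other 2 Gstm6 probes and both Gstm7 probes are higher on every aged array.

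The pi class is represented by Gstp1 and Gstp2, whose probes may share signal. Gstp1 had signals of 4.20, 4.24 and 4.26 at 2 months and 4.15, 4.09 and 4.47 at 20 months, a change of 0 (95% interval -0.29 to 0.30), and Gstp2 had a change of 0.01 (-0.26 to 0.28). For both genes the ages overlapped and aged replicate 3 was the highest array; without it the changes were -0.11 and -0.06. In the theta class Gstt1 and Gstt3 had changes of 0.01 and 0.02. Gstt2 had signals of 3.45, 3.68 and 3.85 at 2 months and 3.57, 3.36 and 3.55 at 20 months, with a change of -0.17 ± 0.13 (adjusted p = 0.566).

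Among the kappa, omega and zeta classes, Gstk1, a mitochondrial and peroxisomal transferase, had signals of 3.23, 3.30 and 3.27 at 2 months and 3.31, 3.44 and 3.60 at 20 months. The ages were separated narrowly, and the change was 0.18 ± 0.11 (adjusted p = 0.463). Gsto2, which reduces dehydroascorbate, was dim, with -3.39, -3.54 and -4.01 at 2 months and -3.82, -4.29 and -4.44 at 20 months. The ages overlapped, and the change of -0.53 ± 0.21 (adjusted p = 0.252) had the lowest interval bound of the 50 genes, -1.02. Gsto1 had a change of -0.14 and Gstz1, an enzyme of tyrosine breakdown, of 0.06.

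Microsomal transferases are membrane proteins unrelated in sequence to the soluble classes. Mgst1 had signals of 2.33, 2.33 and 2.25 at 2 months and 2.27, 2.79 and 3.10 at 20 months. Aged replicate 1 lay within the young range and the other aged arrays above it. The change was 0.42 ± 0.20 (adjusted p = 0.333), and without aged replicate 1 it was 0.65 (adjusted p = 0.0398). Without aged replicate 3 it was 0.23 (adjusted p = 0.6), and with the mean of its probes 0.25 (adjusted p = 0.431). Mgst2, a dim probe, had a change of 0.36 ± 0.24 (adjusted p = 0.501), with -3.95, -4.55 and -3.66 at 2 months and -3.43, -3.94 and -3.72 at 20 months. Without young replicate 2 it was 0.11 and without young replicate 3 0.55. Mgst3 had a change of 0 (95% interval -0.26 to 0.26).

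The 6 peroxiredoxins, which reduce peroxides with a reactive cysteine, had changes from -0.23 to 0.12 with a median of -0.09. Limma called 0 of them, and 0 reached an unadjusted p under 0.05, against 3.38% and 17.1% of all genes. The ages overlapped for all 6. Prdx6, which uses glutathione as its reductant, had signals of 3.56, 3.78 and 3.87 at 2 months and 3.28, 3.64 and 3.62 at 20 months, a change of -0.23 ± 0.14 (adjusted p = 0.473). Prdx2, abundant in red blood cells, had signals of 3.57, 3.69 and 3.51 at 2 months and 3.56, 3.15 and 3.52 at 20 months. Aged replicate 2 was the lowest array, the others lay together, and the change was -0.18 ± 0.14 (adjusted p = 0.567), or -0.05 without that array. The mitochondrial Prdx3 had a change of -0.09 (95% interval -0.34 to 0.16), and Prdx4, which lies in the endoplasmic reticulum, of 0.12 (-0.19 to 0.43). The changes of Prdx1 and Prdx5 were -0.10 and 0.01.

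All 4 genes of the thioredoxin system had changes just below 0, from -0.15 to -0.07. Limma called 0 of them, and 0 reached an unadjusted p under 0.05, against 3.38% and 17.1% of all genes. Txn2, the mitochondrial thioredoxin, had signals of 3.99, 4.08 and 4.25 at 2 months and 3.94, 3.85 and 4.09 at 20 months (change -0.15 ± 0.12, adjusted p = 0.569). Txnrd1, the cytosolic reductase, had 2.73, 2.80 and 2.65 at 2 months and 2.59, 2.48 and 2.72 at 20 months (change -0.13 ± 0.11, adjusted p = 0.602). The ages overlapped for both. Txn1, the cytosolic thioredoxin, had a change of -0.11 and Txnrd2, the mitochondrial reductase, of -0.07.

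Superoxide dismutases and catalase had changes from -0.06 to 0.16. Limma called 0 of the 4, with 0 at an unadjusted p under 0.05, against 3.38% and 17.1% of all genes. Sod2, the mitochondrial enzyme, had signals of 4.44, 4.45 and 4.65 at 2 months and 4.36, 4.47 and 4.51 at 20 months, a change of -0.06 (95% interval -0.32 to 0.19). Sod1, the cytosolic enzyme, had a change of 0.02 (-0.25 to 0.30) and Cat, the peroxisomal catalase, of -0.02 (-0.35 to 0.30). The intervals of all 4 genes, Sod3 included, lay within 1.5-fold in either direction. Sod3, the extracellular enzyme, had signals of 3.68, 3.72 and 3.55 at 2 months and 3.41, 3.89 and 4.12 at 20 months. The aged arrays lay on both sides of the young ones, and the change was 0.16 ± 0.18 (adjusted p = 0.72), or 0 without aged replicate 3.

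Nqo1 and Hmox1 are both widely used as indicators of NRF2 activity. Nqo1, a quinone reductase, had signals of 1.34, 1.25 and 1.42 at 2 months and 1.62, 1.67 and 1.89 at 20 months. It was higher on every aged array, by 0.28, 0.42 and 0.47 within the slide columns. Its change of 0.39 ± 0.12 (adjusted p = 0.139) stayed between 0.31 and 0.44 in the 17 alternatives, with an adjusted p of at least 0.0725. Hmox1, the inducible heme oxygenase, had signals of -0.51, -0.99 and -1.34 at 2 months and -0.99, -0.48 and -0.85 at 20 months. The ages overlapped, the young arrays spread more widely than the aged, and the change was 0.18 ± 0.23 (adjusted p = 0.75). It was 0.40 without young replicate 1 and -0.02 without young replicate 3.

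Of the 8 genes whose start regions held TGACNNNGC, none was called by limma. Among them 6 changes were above 0 and 2 below, and they ran from -0.13 (Txnrd1) to 0.50 (Gstm7) with a median of 0.12. The 35 genes without a match had a median of -0.06, with 13 changes above 0 and 22 below, and included Gpx7. These medians are descriptions, and the difference between them was not tested.

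Genes adjoining the enzymes in glutathione, thiol, NADPH and oxidant biology were examined in 7 lists of 108 genes, of which 102 were tested. Of these, 4 rose, 0 fell and 98 were not called, against 1.98% higher and 1.4% lower over all genes. An unadjusted limma p under 0.05 was found for 16 of the 102, against 17.1% of all genes. The median change of the 102 was 0.04.

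**Figure D4:**
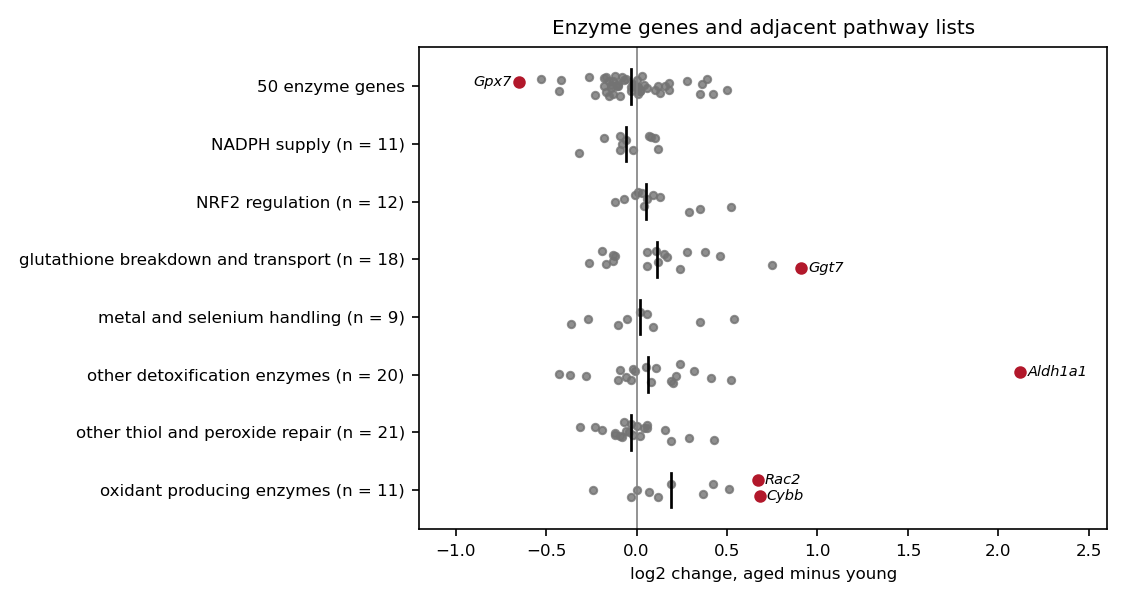
Change of the 50 enzyme genes and of the tested genes of 7 adjoining lists, as the aged minus the young mean of normalised log2 signal (points; black bars, list medians; red, called by limma). The called genes are Gpx7 among the enzymes and Ggt7, Aldh1a1, Rac2 and Cybb in the lists.

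Among 20 other detoxification enzymes, 1 rose and 0 fell. Aldh1a1, a dehydrogenase that makes retinoic acid and clears lipid aldehydes, had signals of -0.06, -0.09 and -0.08 at 2 months and 1.91, 2.19 and 2.04 at 20 months. It rose by 2.12 ± 0.11 (adjusted p = 0.000383) and was called in all 17 alternatives. The list median was 0.06.

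Among 18 tested genes of glutathione breakdown and transport, 1 rose and 0 fell, with a list median of 0.12. Ggt7, a member of the gamma-glutamyltransferase family, had signals of -4.35, -4.59 and -4.39 at 2 months and -3.62, -3.64 and -3.36 at 20 months. It rose by 0.91 ± 0.13 (adjusted p = 0.0125), and its call was lost with no filter on dim probes (0.108). Ggt5, of the same family and also dim, was higher on every aged array, with a change of 0.75 ± 0.16. It was not called (limma adjusted p = 0.0515) but was with the block (0.0477). Ggt6 had a change of 0.38 ± 0.20 with overlapping ages (limma adjusted p = 0.379). Ggt1, the enzyme of the brush border that starts glutathione breakdown outside the cell, had a change of 0.15 ± 0.16 (adjusted p = 0.703).

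Of the 11 tested oxidant producing enzymes 2 rose and 0 fell, and 5 had an unadjusted p under 0.05, with a list median of 0.19. Cybb, the catalytic subunit of the phagocyte NADPH oxidase, had signals of -2.04, -1.90 and -1.64 at 2 months and -1.21, -1.28 and -1.06 at 20 months, and rose by 0.68 ± 0.13 (adjusted p = 0.04). Rac2, a small GTPase that activates that oxidase in blood cells, had signals of -0.53, -0.34 and -0.16 at 2 months and 0.41, 0.25 and 0.31 at 20 months, and rose by 0.67 ± 0.13 (adjusted p = 0.0361). Both were higher on every aged array. Ncf4 and Ncf1, other subunits of the phagocyte oxidase, had changes of 0.51 ± 0.18 (limma adjusted p = 0.206) and 0.42 ± 0.18 (0.283). The ages overlapped for Ncf1 and not for Ncf4. Nox4, the NADPH oxidase of kidney tubules, had a change of 0.12 (95% interval -0.13 to 0.37) and Cyba, the subunit shared by these oxidases, of 0. Over the list, 9 changes were above 0 and 2 below.

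The calls of Cybb and Rac2 depended on single arrays. The adjusted p of Cybb was 0.151 and 0.13 without young replicates 1 and 2, 0.103 and 0.111 without aged replicates 2 and 3, 0.0662 with quantile normalisation, 0.228 with normexp, 0.174 with no filter on dim probes and 0.0573 with the slide column as a block. That of Rac2 was 0.136 and 0.112 without young replicates 1 and 2, 0.051, 0.1 and 0.0916 without aged replicates 1, 2 and 3, 0.164 with no filter on dim probes and 0.0827 with the block. The macrophage marker median was 0.9 to 1.31 at 2 months and 1.59 to 1.83 at 20 months. Of 6 tested macrophage markers, C1qc was called higher (0.68, adjusted p = 0.0462) and Csf1r had a change of 0.07. The median change was 0.50 for the macrophage markers, 0.84 for the T cell markers and 1.85 for the B and plasma cell markers. The part of macrophages or of lymphocytes in the Cybb and Rac2 values was not tested.

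The other 4 lists held no called gene. With limma, 2 of 12 genes of NRF2 regulation, 0 of 11 of NADPH supply, 1 of 21 of other thiol and peroxide repair and 2 of 9 of metal and selenium handling had an unadjusted p under 0.05. Their medians were 0.05, -0.06, -0.03 and 0.02. Nfe2l2, which encodes NRF2, had signals of 1.86, 1.77 and 1.62 at 2 months and 2.07, 1.90 and 2.35 at 20 months. Its ages did not overlap, and its change was 0.35 ± 0.14 (adjusted p = 0.256). Keap1, which marks NRF2 for degradation, had a change of 0.04 (95% interval -0.21 to 0.29). These 2 genes were chosen for their role and not by the naming rule. Maff, a small partner protein of NRF2, had a change of 0.52 ± 0.20 (adjusted p = 0.231), with signals of -1.79, -2.32 and -2.47 at 2 months and -1.90, -1.45 and -1.65 at 20 months. In NADPH supply the smallest p was that of Me1, malic enzyme, with 2.97, 3.15 and 3.22 at 2 months and 2.94, 2.86 and 3.01 at 20 months (change -0.18 ± 0.11, adjusted p = 0.476). Hpgds, a prostaglandin synthase of the sigma GST class, was dim, with -4.22, -4.50 and -3.90 at 2 months and -3.61, -3.80 and -3.92 at 20 months, and had a change of 0.43 ± 0.17 (adjusted p = 0.246). The ages overlapped for Maff, Me1 and Hpgds. Sephs2, which makes the selenium donor for selenoproteins such as Gpx1 and Gpx4, had signals of 1.68, 1.45 and 1.45 at 2 months and 1.84, 2.03 and 2.35 at 20 months. It was higher on every aged array, with a change of 0.54 ± 0.15 (adjusted p = 0.117), and passed without aged replicate 1 (0.66, adjusted p = 0.0474) and with a trended robust variance (0.0333).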

How the data were processed

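Per the labels, Trizol RNA from kidney was reverse transcribed, and Cy3 was built into the cDNA by random-primed Klenow extension, so either strand can carry label. The deposited scanner files hold the processed signal intensity of each spot, which Feature Extraction 11.5.1.1 had corrected for background on a linear scale, per the file headers. The authors' deposited values are log2 processed signal minus a constant per array, close to the 75th percentile, and served as an alternative.

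Control spots and spots flagged as outliers were left out, log2 values of replicate spots were averaged, and each array's 75th percentile was subtracted. A probe was kept where every array of either age read it well above background (30821 of 55681), and the probe of highest mean stood for its gene. Gene symbols are those of RefSeq for GRCm38.p6, a later build than the array's, matched through unversioned transcript accessions (26762 probes named). Of 20284 genes 14545 were tested with limma 3.58.1 (lmFit and eBayes, 2-sided, Benjamini-Hochberg over all genes, threshold 0.05) in R 4.3.3 with version 1.17.8 of the data.table package. Sequences and figures used Python 3.11.15 with pandas 2.3.3, numpy 2.4.6 and matplotlib 3.10.9. The fit was tested on simulated data.

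The 50 genes and all lists were chosen with earlier results of these data known, so none is independent evidence. Values on every array were given for called genes, for up to 2 genes per class with the smallest unadjusted p, and for genes with non-overlapping ages and a change of at least 0.5; of the lists, for called genes and the smallest p in each. Gclm, Gpx8, Ggt1, Ggt5, Ggt6, Ncf1, Ncf4, Nox4, Cyba, Nfe2l2 and Keap1, and the single probes, were added after their values were seen. Alternatives were quantile normalisation, median centring, normexp (offset 50, on the median signal), the authors' values, no filter and a filter needing all 6 arrays. Further ones were keeping outlier spots, averaging the probes of a gene, a trended robust variance, array weights, the replicate number as a block, and leaving out each array.

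Same-numbered young and aged arrays shared a slide column. Protein identity between members was not analysed here.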

Additional observations from a re-analysis of the deposited data

How the results depend on the processing

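Counts of calls moved more than changes did. The count over all genes was 801 with median centring (433 higher, 368 lower), 304 with normexp (214 higher, 90 lower), 16 without the filter on dim probes (15 and 1) and 141 to 925 with 1 array left out, lowest without aged replicate 2 and highest without aged replicate 1. Of the 50 genes, 0 were called with median centring, normexp, no filter or the block (limma, 4, 2, 5 and 6 with an unadjusted p under 0.05) and 3 with the mean of probes (2 higher, 1 lower). Leaving out an array gave 0 to 3 (0 to 1 higher, 0 to 2 lower), with 3 without aged replicate 1 and 1 without aged replicate 3. Single probes called numbered 2 with quantile normalisation, 2 with median centring, 1 with normexp, 0 with no filter (7 with an unadjusted p under 0.05) and 0 to 5 with 1 array left out. Genes of the adjoining lists called numbered 1 with no filter and 2 to 6 with 1 array left out. The median change of the 50 was -0.11 to 0.02 with 1 array left out and stayed within the spread between replicates (SD 0.06) elsewhere. Signs reversed for Gstm6 with the mean of probes (0.44), Gstt2 with normexp (0.02) and Gstp1 and Gstt1 with array weights (-0.01 each). With 1 array left out the change of Gstp2 ran from -0.06 to 0.07 (below 0 without young 1, young 2 and aged 3), of Gstp1 from -0.11 to 0.08 (below 0 without young 1 and aged 3), of Gstt1 from -0.03 to 0.08 (0 without aged 1 and below 0 without aged 3), of Hmox1 from -0.02 (without young 3) to 0.40, of Sod2 from -0.10 to 0 (without young 3) and of Sod3 from 0 (without aged 3) to 0.35. Over the same 6 fits the change kept its sign and ran from -0.27 to -0.09 for Gss, -0.28 to -0.08 for Gstt2, -0.31 to -0.11 for Prdx6, -0.22 to -0.08 for Txn2, -0.19 to -0.07 for Txnrd1 and 0.11 to 0.25 for Gstk1. The replicate number as a block gave 266 genes (164 higher, 102 lower), 0 of the 50 and 0 single probes (9 with an unadjusted p under 0.05). The numbers were not taken to pair the samples, since deviations of same-numbered arrays correlated by 0.062, -0.092 and 0.102 and 2 of 6 arrays correlated best with their own number. The cause of these shifts was not tested. Dim probes limit what can be said of Gsto2 and Mgst2, whose signal was not above background on every array.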

Other observations

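The median SD between the 3 arrays of an age was 0.09 in young and 0.18 in aged samples over the 50 genes, against 0.12 and 0.17 over all genes tested. Young replicates 2 and 3 were each the highest of the young arrays for 21 of the 50 genes and young replicate 1 for 8. Among the aged arrays, replicate 3 was the highest for 34 genes, replicate 1 for 9 and replicate 2 for 7. Whether the spread at 20 months differs between these enzymes and other genes was not tested.

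Another probe each of Prdx6 and Gstm3 was above background on 2 young and 1 aged arrays and was not tested. Mgst3 and Gstm1, like Gstm6, had tested probes with changes of both signs, which differed by 0.13 and 0.06.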
